A study of Bos taurus with 56 samples.

Results

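The isthmus ipsilateral to the corpus luteum was compared between lactating and non-lactating Holstein cows. The members were chosen by the group, region and side in the column names of the count table, which gave 4 libraries of lactating cows and 5 of non-lactating cows, 9 of the 56 libraries of the series. The series covers epithelial cells of the ampulla and the isthmus, on both sides, from 14 animals. All cows were primiparous and had calved about 60 days earlier. Lactating cows had been milked since calving, whereas non-lactating cows were dried off immediately after calving and never milked. Estrus was synchronised in every animal with a progesterone device, a prostaglandin analogue and a GnRH analogue, no animal was inseminated, and tissues were taken on Day 3 after estrus. The comparison asks which transcripts of the oviduct epithelium differ with lactation where the early embryo resides. Isthmus libraries of 5 nulliparous Holstein heifers, collected on the same cycle day, are used as a reference level. Each animal gave 1 library per tissue, so replicates were separate animals. Cows are called A to D within the lactating group and A to E within the non-lactating group. Epithelium was recovered by scraping, so a library can hold cells other than epithelial cells.

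The isthmus is the narrow part of the oviduct that joins the uterus. It stores sperm, and after fertilisation the embryo spends its first days there before it enters the uterus. Its epithelium consists of ciliated cells, which move fluid and gametes, and secretory cells, which release glycoproteins, nutrients and growth factors into the lumen. In early lactation the demand of the udder for glucose lowers circulating glucose, insulin and IGF1 and raises growth hormone and ketone bodies, and the isthmus is exposed to that blood as well as to ovarian steroids that reach the ipsilateral oviduct locally.

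The counts on genes were 4842505 to 6208967 per library in lactating cows (median 4969556.5) and 3714419 to 6836850 in non-lactating cows (median 5681863). The share of alignments that fell on genes was 9.22 to 11.3% in lactating cows and 11.0 to 13.1% in non-lactating cows. Every pair of libraries of a group differed by more than sampling noise (chi-square divided by its degrees of freedom 10.2 to 25.8, 16 pairs). All 9 libraries carried the markers of oviduct epithelium. The summed level of 13 ciliated cell genes was 5351 to 7787 CPM (reads of a gene relative to the library total, normalised by TMM) in lactating cows and 6722 to 8253 in non-lactating cows. The 6 secretory cell genes summed to 5362 CPM in lactating cow C, 11840 to 16211 in the other lactating cows and 15327 to 23225 in non-lactating cows. Most of the sum in lactating cow C was OVGP1 (2016 CPM) and MUC16 (2974 CPM), and the other members did not all follow. In that cow PAX8 was at 124 CPM, against 87.0 to 101 in the other lactating cows, and SPDEF at 145, against 119 to 160. MSLN was at 39.7 CPM, against 43.4 to 136.

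Lactating cows A and C stood apart from the other 7 cows on the second principal component, with 17.5% of the variance. They scored 41.5 and 45.1 there and the other cows -19.7 to -2.59. On the first component, with 24.2%, they were far from each other, at 37.4 and -34.7. Non-lactating cows B, C and D scored 15.4 to 42.4 on it, and the remaining cows -25.1 to -18.6. Lactating cow A carried more immune cell transcripts. Its 10 macrophage markers summed to 246 CPM, against 48.3 to 96.8 in the other lactating cows and 44.1 to 73.8 in non-lactating cows. Its T cell markers summed to 132 CPM, against 21.8 to 38.8 and 30.8 to 58.4, its neutrophil markers to 64.7 CPM, against 1.14 to 9.57 and 8.51 to 21.7, and its B and plasma cell markers to 10.1 CPM, against at most 3.63 in any other cow. The defining B cell gene MS4A1 and the neutrophil receptor CXCR2 were at 0 in all 9 libraries. Smooth muscle markers overlapped between groups (138 to 190 and 147 to 197 CPM), as did those of fibroblasts (149 to 215 and 85.9 to 240), endothelium (24.3 to 58.8 and 13.5 to 58.2, with CLDN5 at 0), adipocytes (5.74 to 12.5 and 5.41 to 16.6, with LEP at 0) and mesothelium (113 to 433 and 161 to 539). Mesothelium markers summed to 433 CPM in lactating cow A and 113 to 235 in the other lactating cows. They summed to 388 to 539 CPM in non-lactating cows B, C and D and to 161 and 183 in A and E. Most of the sum was WT1 and MSLN, and MSLN is also among the secretory cell genes. WT1 was at 63.0 to 378 CPM here and at 383 to 627 in the ampulla libraries of the cow groups. The share of mesothelial cells in these sums was not tested. Of 3 tested mesothelium genes, 1 was lower in lactating cows at an unadjusted p under 0.05 by edgeR's quasi-likelihood test, against 2.91% of all genes. Their median log2 fold change was -0.78. Red blood cell markers summed to at most 1.27 CPM, with HBA, HBB, HBG and SLC4A1 at 0. In bulk RNA such as this, fewer cells of a type and less RNA per cell cannot be told apart.

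No gene passed the test across all genes. After Benjamini-Hochberg adjustment of the p-values of edgeR's quasi-likelihood test, 0 of 14077 genes tested (0%) were under 0.05, and 881 genes had an unadjusted p under 0.05, which was 6.26% of those tested (3.35% higher and 2.91% lower in lactating cows). The median log2 fold change of all genes was -0.01, with 6902 genes higher and 7175 lower. The precision was nevertheless enough to bound most genes: the median standard error (SE) of the log2 fold change was 0.21, and for 10562 genes (75.0%) the 95% interval lay between -1 and 1, so a change beyond 2-fold was outside the interval. For 4 genes the interval lay wholly outside that range, BLA-DQB, BOLA-DQA5, KCNH7 and LOC100848815, and the last of these and KCNH7 are named after their values were seen. That of BOLA-DQA5 rests on lactating cow A, without which its log2 fold change was 0.94 in place of 4.02. DESeq2's Wald test on the same counts called 16 genes, 0.111% of the 14381 with an adjusted p, of which 10 were higher and 6 lower in lactating cows. These 16 genes rest on the choice of test and are described first, each with the value in every cow. The levels of 128 genes in lactating cows were all above, and those of 128 genes all below, every non-lactating cow, each 0.909% of the genes tested and 1.82% in all. Correlations between libraries over all genes had a median of 0.938 within lactating cows, 0.949 within non-lactating cows and 0.940 between them.

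STEAP4, a metalloreductase of iron and copper that responds to nutritional and inflammatory signals, was at 82.7, 62.6, 150 and 119 CPM in lactating cows A to D and at 31.3, 36.7, 48.3, 20.1 and 34.2 in non-lactating cows A to E. Every lactating cow was above every non-lactating cow, with means of 104 ± 38.7 (SD, n = 4) and 34.1 ± 10.1 (SD, n = 5). The log2 fold change was 1.59 (SE 0.27, 95% interval 0.99 to 2.19), with an adjusted p of 0.480 by edgeR's quasi-likelihood test and 0.000167 by DESeq2. It stayed between 1.37 and 1.77 whichever cow was left out.

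TACR1 encodes the neurokinin 1 receptor, through which substance P contracts smooth muscle and stimulates secretion. Its level was 55.0, 50.1, 40.5 and 51.0 CPM in lactating cows and 15.0, 8.58, 8.80, 5.62 and 34.4 in non-lactating cows. The groups did not overlap, and non-lactating cow E was nearest to the lactating cows. This gave a log2 fold change of 1.80 (SE 0.42, 95% interval 0.88 to 2.71), with an adjusted p of 0.778 by edgeR's quasi-likelihood test and 0.0167 by DESeq2. Without non-lactating cow E, whose removal widens the gap, it was 2.37 and passed edgeR's test. It did not pass with any other cow left out. The other tachykinin receptor measured, TACR3, which binds neurokinin B, was at 62.8 to 122 CPM in lactating cows and 31.0 to 208 in non-lactating cows.

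BLA-DQB, a beta chain of the MHC class II molecules that present peptides to helper T cells, was at 225, 49.7, 94.5 and 14.9 CPM in lactating cows and at 11.2, 4.10, 6.63, 7.44 and 11.2 in non-lactating cows. The groups did not overlap, although the level spanned a wide range among lactating cows and lactating cow D was close to the highest non-lactating cows. On the log2 scale the fold change was 3.58 (SE 0.63, 95% interval 2.20 to 4.95), with an adjusted p of 0.480 by edgeR's quasi-likelihood test and 0.00169 by DESeq2, and it was 2.71 without lactating cow A. MHC class II genes have near-identical copies, and reads aligned to several places were not counted, so the level of a single copy is uncertain.

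ATP13A5, a membrane pump of the cation-transporting P5 ATPases, was at 17.2, 97.1, 45.6 and 69.2 CPM in lactating cows and at 16.4 ± 3.40 (SD, n = 5) in non-lactating cows. Lactating cow A lay within the non-lactating range and the other 3 lactating cows above it. The log2 fold change was 1.80 (SE 0.38), with an adjusted p of 0.747 by edgeR's quasi-likelihood test and 0.00422 by DESeq2. Without lactating cow A, whose removal widens the gap, it was 2.11 and passed edgeR's test. It did not pass with any other cow left out. FAT4, an atypical cadherin of planar cell polarity, was at 18.0, 36.2, 45.0 and 33.8 CPM in lactating cows and at 14.4 to 19.3 in non-lactating cows, again with lactating cow A inside the non-lactating range (log2 fold change 1.04, SE 0.23). MYLK3, a myosin light chain kinase, was at 90.8, 94.2, 62.6 and 92.4 CPM in lactating cows and at 46.8 to 61.4 in non-lactating cows, so the groups were apart by a narrow gap (log2 fold change 0.69, SE 0.15).

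SPP1 and PLA2R1 were called by DESeq2 but rested on few libraries. SPP1 encodes osteopontin, a secreted ligand of integrins and CD44, and had 105, 96, 8 and 8 counts in lactating cows A to D against 3 to 5 in each non-lactating cow. PLA2R1, a receptor of secreted phospholipases A2, had 112, 22, 2 and 21 counts against 3 to 5. Neither passed the filter on low counts, so edgeR's test did not include them. Without the filter their log2 fold changes were 3.83 (SE 0.75) and 3.36 (SE 0.78), with adjusted p of 0.352 and 0.635 by edgeR's quasi-likelihood test. The remaining higher genes called by DESeq2, LOC104974266 and LOC100847661, had log2 fold changes of 1.03 (SE 0.22) and 1.25 (SE 0.29), and the groups were apart for the first of them.

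Among the 6 genes that DESeq2 called lower, MYRF, a membrane-bound transcription factor known from myelinating cells, was at 13.3, 12.7, 12.4 and 14.9 CPM in lactating cows and at 20.1, 47.6, 36.5, 35.7 and 34.7 in non-lactating cows. Lactating cows were close to one another and below every non-lactating cow. Their log2 fold change against non-lactating cows was -1.39 (SE 0.23, 95% interval -1.89 to -0.90), with an adjusted p of 0.480 by edgeR's quasi-likelihood test and 0.000167 by DESeq2. Without non-lactating cow A, the lowest of its group, whose removal widens the gap, it was -1.53 and passed edgeR's test. It did not pass with any other cow left out.

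TGFA, a ligand of the epidermal growth factor receptor, was at 30.3, 38.1, 29.9 and 42.2 CPM in lactating cows and at 58.2, 65.5, 51.2, 67.7 and 71.2 in non-lactating cows. The groups did not overlap, and the log2 fold change was -0.84 (SE 0.15, 95% interval -1.17 to -0.51), with an adjusted p of 0.480 by edgeR's quasi-likelihood test and 0.00260 by DESeq2. Of the 12 tested ligands and receptors of the epidermal growth factor family, TGFA and the neuregulin NRG3 were lower at an unadjusted p under 0.05. None was higher, and 2.91% of all genes were lower at that level. NRG3 was near the limit of detection, at 0.325 to 1.66 CPM in lactating cows and 1.87 to 6.71 in non-lactating cows. The median of the family was 0.17, and without non-lactating cow E 2 members were higher and 2 lower at that level.

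ANK2, ATP2B2 and KCNH3, membrane proteins of ion transport and its anchoring, were also called lower by DESeq2. Ankyrin B, the product of ANK2, which ties ion channels and pumps to the cytoskeleton, had transcript levels of 721, 481, 636 and 926 CPM in lactating cows and 1106, 1180, 1177, 1548 and 1435 in non-lactating cows (log2 fold change -0.90, SE 0.19). ATP2B2, a calcium pump of the plasma membrane, was at 159, 154, 109 and 107 CPM in lactating cows and at 174, 241, 277, 221 and 256 in non-lactating cows (log2 fold change -0.82, SE 0.17). KCNH3, a voltage-gated potassium channel, was at 45.1, 52.8, 34.5 and 43.2 CPM in lactating cows and at 63.2, 108, 81.6, 70.9 and 80.3 in non-lactating cows (log2 fold change -0.88, SE 0.18). For each of these genes the groups did not overlap, and edgeR's quasi-likelihood test gave an adjusted p of 0.747 against 0.00422, 0.0156 and 0.0109 by DESeq2. PGM5, a phosphoglucomutase-like protein of cell adhesion sites, was at 6.53, 8.11, 5.62 and 7.47 CPM in lactating cows and at 16.7, 19.6, 16.0, 23.4 and 10.1 in non-lactating cows (log2 fold change -1.32, SE 0.25).

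Genes of calcium and potassium handling as a list did not share this direction. Of 21 tested, 2 were higher and 4 lower at an unadjusted p under 0.05 (3.35% and 2.91% of all genes). DESeq2 called 4 of the 21, described above. Of the list, 9 had a positive and 12 a negative log2 fold change, and the median was -0.03. Over the cows left out, 1 to 4 were higher and 3 to 5 lower at that level. Besides the genes above, the endoplasmic reticulum calcium pump ATP2A3 had a log2 fold change of 1.13 (SE 0.41), or 0.55 without lactating cow C, and the inositol trisphosphate receptor ITPR3 of -0.52 (SE 0.21), and these examples were chosen after their values were seen.

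**Figure D1:**
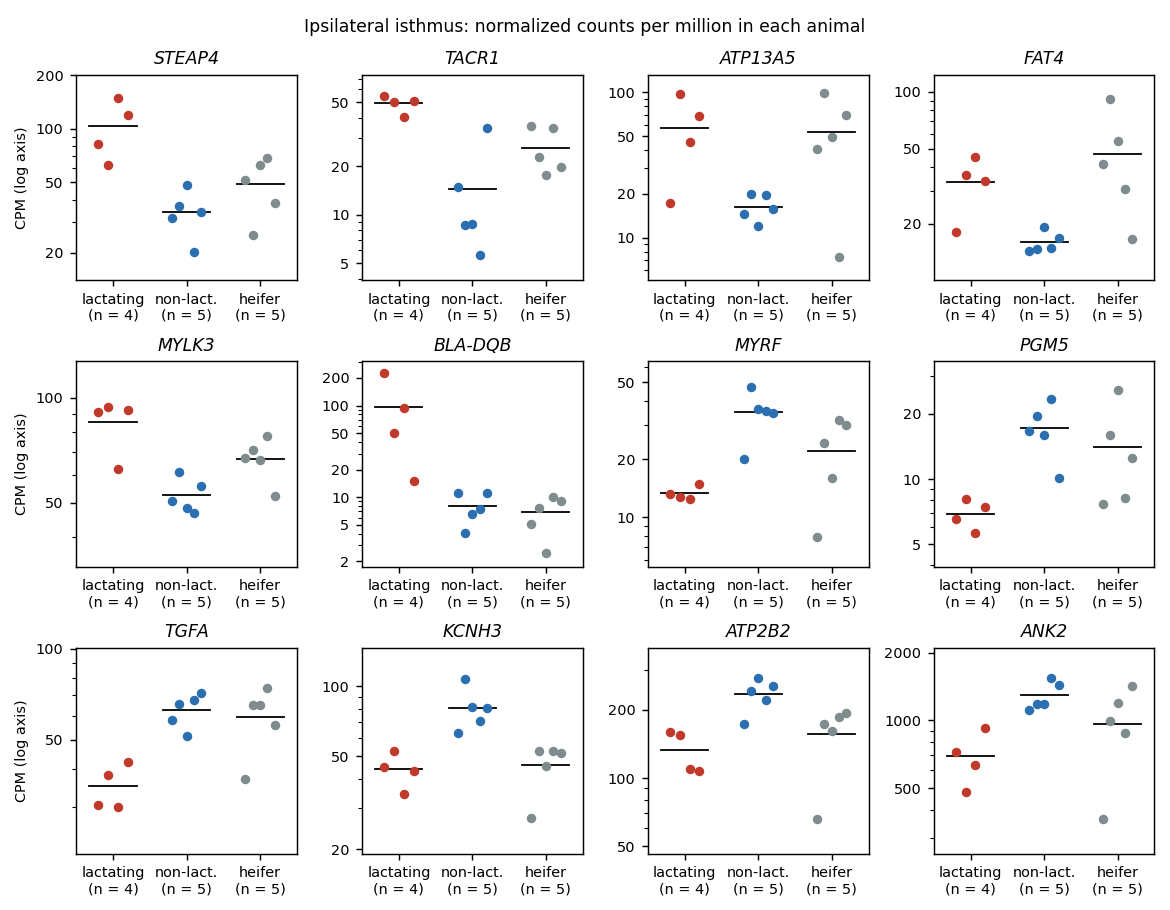
Level of 12 genes in the ipsilateral isthmus, in CPM on a log axis, with 1 point per animal for lactating cows (n = 4), non-lactating cows (n = 5) and heifers (n = 5), and a line at each group mean. STEAP4 lay at 62.6 to 150 CPM in lactating cows, above all non-lactating cows, and MYRF at 12.4 to 14.9 CPM, below all of them.

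A further 10 genes with a symbol were named because the groups did not overlap and the unadjusted p was among the smallest in either direction. All had an adjusted p of 0.778 by edgeR's quasi-likelihood test, and the DESeq2 fit above called none of them, although NRCAM was called with DESeq2's beta prior (adjusted p 0.0498). Of those higher in lactating cows, PECR, a peroxisomal enzyme of fatty acid elongation, was at 39.2 ± 4.94 CPM against 25.4 ± 2.44, the cell adhesion molecule NRCAM at 57.4 ± 8.32 against 24.3 ± 10.2, and P2RY2, a receptor for extracellular ATP and UTP, at 47.6 ± 6.49 against 29.1 ± 6.18. SIAE, which removes acetyl groups from sialic acids, was at 45.8 ± 6.46 CPM against 31.1 ± 1.86, and SUPT3H, a subunit of a histone acetyltransferase complex, at 15.1 ± 1.79 against 8.56 ± 1.26. PARPBP, a partner of PARP1 in DNA repair, was at 1.95 to 2.57 CPM in lactating cows against 0.577 to 0.801, which rests on 10 to 13 counts per library against 3 to 4. Among those lower were SERPINH1, the collagen chaperone, at 35.0 ± 5.52 CPM against 58.0 ± 11.6, and CHDH, which oxidises choline, at 10.4 ± 2.56 against 18.4 ± 2.45. COPS6, a subunit of the COP9 signalosome, was at 51.8 ± 4.35 CPM against 72.9 ± 8.21, and ZFAND2A, a stress-induced protein of the proteasome, at 2.39 ± 0.840 against 6.21 ± 1.31. Values are means ± SD of 4 lactating and 5 non-lactating cows.

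Genes of the MHC class II pathway had higher means in the lactating group, and lactating cow A held by far the highest levels. The list summed to 3263, 302, 802 and 272 CPM in lactating cows A to D and to 287, 225, 290, 850 and 327 in non-lactating cows A to E. All 9 tested genes had a positive log2 fold change, 6 of them with an unadjusted p under 0.05 (3.35% of all genes in this direction), and the median was 1.48. Without lactating cow A the median was 0.45, 6 of 9 were positive and 1 had an unadjusted p under 0.05. CD74, the invariant chain, was at 2474, 172, 487 and 173 CPM against 208, 156, 200, 708 and 215, so 1 cow of each group was far above the rest. Its log2 fold change was 1.48 (SE 0.75) with lactating cow A and -0.10 without. BOLA-DQA5, an alpha chain, was at 101, 0, 3.41 and 6.33 CPM against 0.187 to 4.90, and BOLA-DMA, which loads peptides, at 47.3, 10.6, 24.9 and 8.12 against 4.10 to 13.4. CTSS, the protease that degrades the invariant chain, was at 89.3, 45.3, 57.8 and 47.6 CPM against 29.8 to 54.2. The macrophage, T cell, neutrophil and B cell markers were also highest in lactating cow A, and their part in the result was not tested. BLA-DQB remained above every non-lactating cow in each of the other lactating cows, at 14.9 to 94.5 CPM.

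Complement and macrophage genes were highest in the same animal. Of 16 tested complement genes 6 had an unadjusted p under 0.05 and were higher, against 3.35% of all genes, none was lower, the median was 0.90, and 12 had their highest level in lactating cow A. C1R, a protease of the first complement component, was at 120 CPM in that cow, 1.46 to 6.66 in the other lactating cows and 0 to 11.6 in non-lactating cows. Without lactating cow A the median was -0.05, 8 genes were higher and 8 lower, and 1 had an unadjusted p under 0.05, in the lower direction. No complement gene had an unadjusted p under 0.05 without non-lactating cow B or C either, and 2 had without non-lactating cow E. CFI, which inactivates C3b, was at 138, 71.1, 53.0 and 60.6 CPM against 38.5 to 68.3. The 8 tested macrophage markers were all highest in lactating cow A. Their median was 0.91 and 3 were higher at an unadjusted p under 0.05, against 3.35% of all genes. Without lactating cow A the median was 0.30 and the count 0. The count was 1 without non-lactating cow C or E, 5 without non-lactating cow D and 6 without lactating cow B. CSF1R, the receptor of the macrophage growth factor, was at 42.9, 11.2, 10.2 and 22.6 CPM against 6.34 to 11.9, and C1QC at 49.9, 5.20, 10.6 and 12.7 against 5.04 to 11.4. The 8 T cell markers had a median of 0.82, none at an unadjusted p under 0.05, and -0.59 without lactating cow A.

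Interferon response genes were highest in lactating cows A and C. The list summed to 1457, 471, 1474 and 450 CPM in lactating cows A to D and to 423 to 949 in non-lactating cows. All 19 tested genes had a positive log2 fold change and the median was 0.63. However, only IFIH1, a sensor of double-stranded RNA, had an unadjusted p under 0.05, against 3.35% of all genes in this direction. It was at 68.7, 36.8, 64.0 and 33.0 CPM against 29.8 to 37.6. UBA7, the activating enzyme of ISG15, was at 65.3, 7.28, 84.1 and 4.55 against 7.74 to 24.5. For UBA7, lactating cows B and D were below every non-lactating cow. Lactating cow C was the highest of all 9 cows for 13 of the 19 genes and lactating cow A for 5. The median was 0.41 without lactating cow A and 0.23 without lactating cow C, with no gene at an unadjusted p under 0.05 in either case. The count was 3 without non-lactating cow C, 5 without lactating cow B and 8 without lactating cow D.

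SAA3, a serum amyloid of the acute phase response that epithelia secrete, did not follow lactating cow A alone. It was at 1458, 768, 804 and 1307 CPM in lactating cows and at 808, 293, 380, 285 and 531 in non-lactating cows, and overlapped only between lactating cows B and C and non-lactating cow A. The log2 fold change was 1.24 (SE 0.32, 95% interval 0.55 to 1.93), with an adjusted p of 0.778 by edgeR's quasi-likelihood test and 0.0525 by DESeq2, or 0.0498 with DESeq2's beta prior, which calls it. Serum amyloid A genes form a family of close copies, which leaves the level of a single copy uncertain. PI3, the elastase inhibitor elafin, was at 51.7, 26.4, 56.2 and 53.6 CPM against 23.0 to 41.4. Of 10 tested genes of acute phase and neutrophil defence, 3, STEAP4 among them, were higher at an unadjusted p under 0.05, against 3.35% of all genes. None was lower, and the median was 0.53, or 0.02 without lactating cow A.

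**Figure D2:**
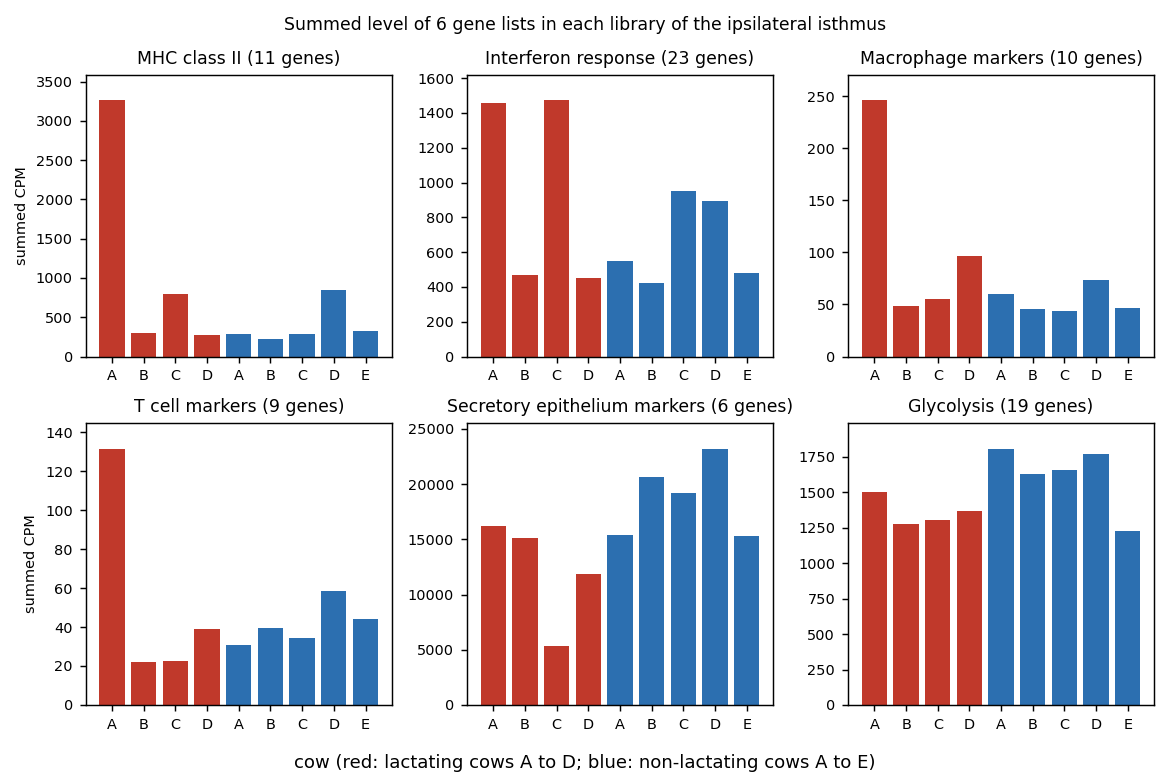
Summed CPM of 6 gene lists in each library of the ipsilateral isthmus, with lactating cows A to D in red and non-lactating cows A to E in blue. MHC class II genes summed to 3263 CPM in lactating cow A and 850 in non-lactating cow D, against 225 to 802 in the other cows.

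Glycolysis genes lay slightly lower in lactating cows. Of 17 tested, 16 had a negative log2 fold change and 4 were lower at an unadjusted p under 0.05. Of all genes, 2.91% were lower at that level and 6.26% passed it in either direction. The median of the list was -0.23, against -0.01 for all genes. The list summed to 1506, 1278, 1303 and 1366 CPM in lactating cows and to 1809, 1629, 1661, 1771 and 1230 in non-lactating cows, of which only non-lactating cow E was not above every lactating cow. ALDOC, an aldolase, was at 12.1, 7.49, 8.23 and 6.01 CPM against 17.5 to 23.8 in non-lactating cows A to D and 5.6 in non-lactating cow E (log2 fold change -1.08, SE 0.37). TPI1, triosephosphate isomerase, was at 79.3 to 114 CPM against 75.8 to 205, and ENO1, enolase, at 147 to 182 against 159 to 279. The median stayed between -0.30 and -0.18 over the cows left out. The number at an unadjusted p under 0.05 did not, being 1 without lactating cow B or C, 2 without any of non-lactating cows A to D, and 8 without non-lactating cow E.

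The 23 tested genes of cholesterol biosynthesis had a median of -0.30 and 19 were negative. The 2 genes at an unadjusted p under 0.05, both lower, were 8.70% of the list. Of all genes, 2.91% were lower at that level and 6.26% passed it in either direction. The 2 genes of the list were IDI1, an isomerase of isoprenoid synthesis, and NSDHL, a sterol dehydrogenase. IDI1 was at 25.9, 47.2, 36.3 and 41.9 CPM against 70.5, 62.1, 62.6, 44.8 and 37.6. NSDHL was at 32.3 to 46.0 CPM in lactating cows against 57.2 to 62.9 in non-lactating cows A to D and 34.2 in non-lactating cow E. Their log2 fold changes were -0.56 (SE 0.22) and -0.45 (SE 0.18). Without non-lactating cow E, 13 of the 23 genes had an unadjusted p under 0.05, and the median was -0.40. The count was 1 without lactating cow A, lactating cow C or non-lactating cow D, 0 without non-lactating cow A, B or C, 3 without lactating cow D and 4 without lactating cow B.

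Genes of fatty acid oxidation and ketone bodies showed no shared direction, with 14 of 24 higher, 10 lower and a median of 0.02, and the 95% interval lay within -1 and 1 for 17 of them. The gene at an unadjusted p under 0.05 that was higher was PDK4, the kinase that shuts off pyruvate dehydrogenase, at 211, 262, 149 and 156 CPM against 185, 57.5, 66.8, 77.1 and 181. Non-lactating cows A and E lay within the lactating range, and no gene of the list was higher at that level without lactating cow A, non-lactating cow B or non-lactating cow C. The gene that was lower was UCP2, a mitochondrial carrier, at 123, 73.0, 44.6 and 111 CPM against 112 to 174. PDK4 and UCP2 together were 8.33% of the 24 genes, against 6.26% of all genes at that level.

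**Figure D3:**
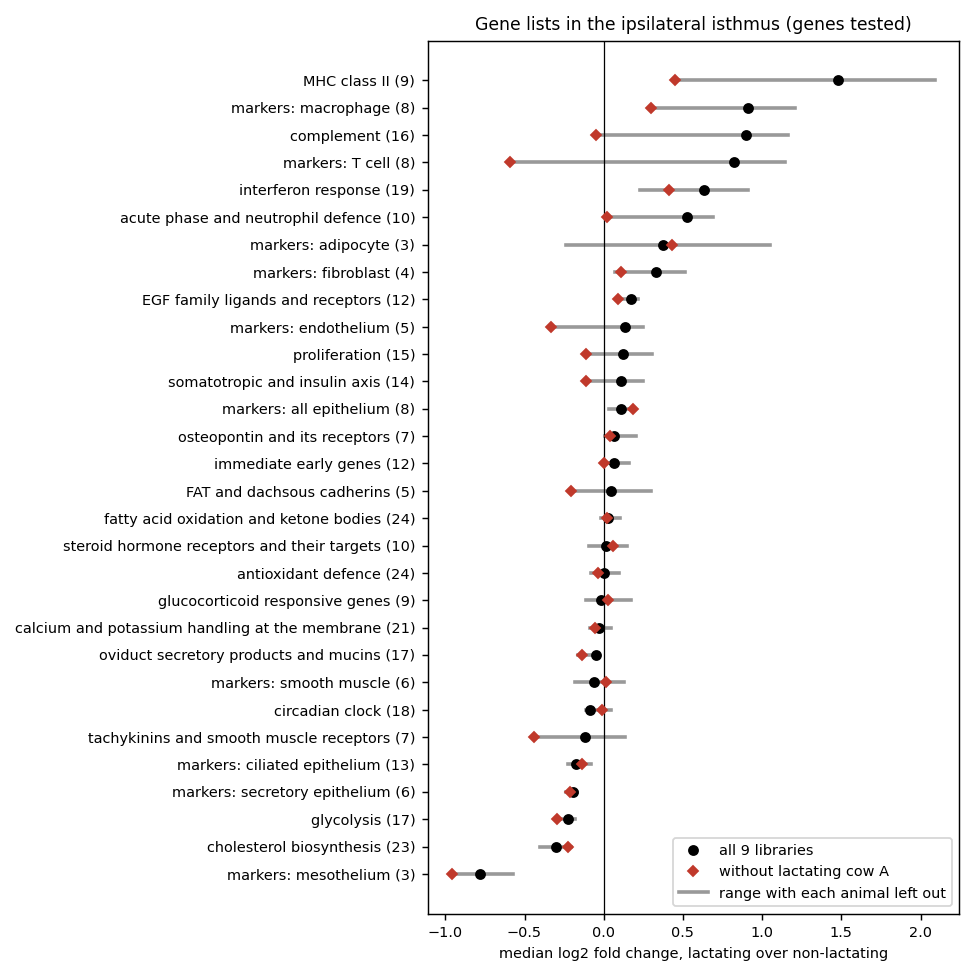
Median log2 fold change (lactating over non-lactating) of the tested genes of each list in the ipsilateral isthmus. Grey lines span the medians with each cow left out in turn and red diamonds give the median without lactating cow A, which was 0.45 in place of 1.48 for MHC class II and -0.05 in place of 0.90 for complement.

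Few genes of the hormone axes that differ in early lactation had an unadjusted p under 0.05, a level that 6.26% of all genes reached. Of 14 tested genes of the somatotropic and insulin axis, 1 was past that level, against 2 higher and 2 lower without lactating cow A and 3 higher without non-lactating cow E. With all cows this was GHR, the growth hormone receptor, at 6.53, 12.7, 13 and 10.9 CPM in lactating cows and at 6.94, 2.24, 3.60, 1.63 and 9.07 in non-lactating cows, with a log2 fold change of 1.22 (SE 0.45). The median of the list was 0.11, or -0.11 without lactating cow A, and 8 genes had an interval within -1 and 1. Of 10 tested steroid hormone receptors and their targets, 9 had an interval within -1 and 1 and the median was 0.02. The estrogen receptor ESR1 was at 400 ± 85.5 CPM (SD, n = 4) in lactating cows and 356 ± 90.0 (SD, n = 5) in non-lactating cows, with an interval of the log2 fold change of -0.28 to 0.60. The progesterone receptor PGR was at 38.0 ± 2.76 and 38.5 ± 16.8 CPM, with an interval of -0.71 to 0.68. Both receptors were picked after their values were seen. TFF3, a trefoil peptide of mucus, was the gene of this list with an unadjusted p under 0.05, at 123, 111, 252 and 173 CPM against 63.1 to 134, and no gene of the list was higher at that level without lactating cow C.

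Secretory products of the oviduct were higher for some members and lower for others. Of 17 tested, 3 were higher and 1 lower at an unadjusted p under 0.05 (3.35% and 2.91% of all genes), and the median was -0.05. Over the cows left out these counts were 2 to 3 and 0 to 3. OVGP1, the oviduct-specific glycoprotein that binds to the zona pellucida, was the most abundant, at 9436, 11209, 2016 and 8053 CPM in lactating cows and at 10887, 13785, 13232, 14862 and 10898 in non-lactating cows. Its level in lactating cow C was the lowest of the 9, and the log2 fold change was -0.73 (SE 0.37), or -0.41 without that cow. MUC15, a membrane mucin, was at 4.16, 14.8, 13.6 and 19.6 CPM against 3.56 to 7.09 (log2 fold change 1.16, SE 0.38). PIGR, which carries immunoglobulin A across epithelia, was at 50.9 CPM in lactating cow A, 1.46 to 2.5 in the other lactating cows and 0.373 to 5.34 in non-lactating cows. Its log2 fold change was 2.30 (SE 1.03) with lactating cow A and -0.64 without.

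Ciliated cell genes were close between the groups. All 13 tested had an interval within -1 and 1, 12 were lower in lactating cows, and the median was -0.18. Without lactating cow C or without non-lactating cow D, 5 were higher and 8 lower. FOXJ1, the master regulator of motile cilia, was the gene with an unadjusted p under 0.05, at 189, 200, 151 and 194 CPM against 198, 229, 271, 257 and 288 (log2 fold change -0.44, SE 0.14). That was 7.69% of the list, against 2.91% of all genes in that direction. The 8 general epithelial markers had a median of 0.11, none at an unadjusted p under 0.05, and all 8 intervals lay within -1 and 1.

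Of the osteopontin receptors, CD44 was at 42.5, 25.6, 10.8 and 10.1 CPM in lactating cows and at 16.0, 6.72, 4.47, 5.44 and 6.94 in non-lactating cows, and the integrin subunit ITGB6 at 23.7, 7.49, 8.83 and 3.57 against 3.03 to 6.94. Both were highest in lactating cow A. SPP1 had 105 counts in that cow and 96 in lactating cow B, in which ITGB6 was below lactating cow C. In the contralateral isthmus SPP1 was at 1.40 CPM in lactating cow A and 58.8 in lactating cow B. CD44 was at 53.6 and 38.1 CPM in these cows there, and ITGB6 at 10.6 and 10.1. A relation between SPP1 and its receptors across cows was not tested. Of 7 tested genes of the osteopontin list in the ipsilateral isthmus, 3 were higher at an unadjusted p under 0.05, against 3.35% of all genes. The count was 0 without lactating cow A and 2 to 3 without any other cow. Of the other atypical cadherins, FAT1 was at 540, 847, 505 and 674 CPM against 1320, 813, 667, 923 and 991 (log2 fold change -0.56, SE 0.21), opposite in sign to FAT4.

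In the contralateral isthmus of the same 9 cows, edgeR's quasi-likelihood test called 0 of 13902 genes, 3.94% had an unadjusted p under 0.05 (1.87% with higher and 2.07% with lower levels in lactating cows), and DESeq2 called 2 genes (0.0086%). The library of non-lactating cow B had 1901454 counts on genes there, against 3706409 to 5274847 in the other cows. In that of non-lactating cow C, OVGP1 was at 37.4 CPM, against 5006 to 15320 in the other cows. Several genes that were apart on the ipsilateral side were at similar levels on the contralateral side. STEAP4 was at 104, 138, 162 and 120 CPM in lactating cows and at 118, 88.3, 176, 151 and 102 in non-lactating cows, with a log2 fold change of 0.04 (SE 0.20, 95% interval -0.40 to 0.47). Non-lactating cows were thus at 20.1 to 48.3 CPM on the ipsilateral side and at 88.3 to 176 on the contralateral side. TACR1 was at 51.6 to 99.1 CPM in lactating and 49.3 to 83.7 in non-lactating cows (log2 fold change 0.06, SE 0.22), and MYRF at 16.3 to 24 and 8.19 to 27.2 (log2 fold change 0.03, SE 0.29). The lowest and highest MYRF levels were those of non-lactating cows C and B. BLA-DQB was higher on this side as well, at 108, 81.8, 154 and 14.8 CPM against 2.57 to 12.4 (log2 fold change 3.33, SE 0.54). SPP1 was at 58.8 CPM in lactating cow B and at 1.08 to 1.40 in the other lactating cows.

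The difference between the sides was tested over the 18 isthmus libraries as an interaction between lactation and side. None of 14739 genes passed by edgeR's quasi-likelihood test (0%), the smallest adjusted p being 0.9999, and 2.58% had an unadjusted p under 0.05. With the animal as a block, again none passed, with a smallest adjusted p of 0.224 and 4.91% at an unadjusted p under 0.05. Without the block, the log2 fold change of STEAP4 was 1.56 (SE 0.37) larger on the ipsilateral than on the contralateral side. That of TACR1 was 1.74 (SE 0.50) larger, and that of MYRF differed by -1.42 (SE 0.38) from the contralateral side. With the block these values were 1.51 (SE 0.30) for STEAP4, 1.96 (SE 0.42) for TACR1 and -1.43 (SE 0.34) for MYRF. In the block fit the adjusted p was 0.421 for STEAP4, for TACR1 and for MYLK3, and 0.671 for MYRF. A difference of lactation effect between the sides was therefore not established for any gene.

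**Figure D4:**
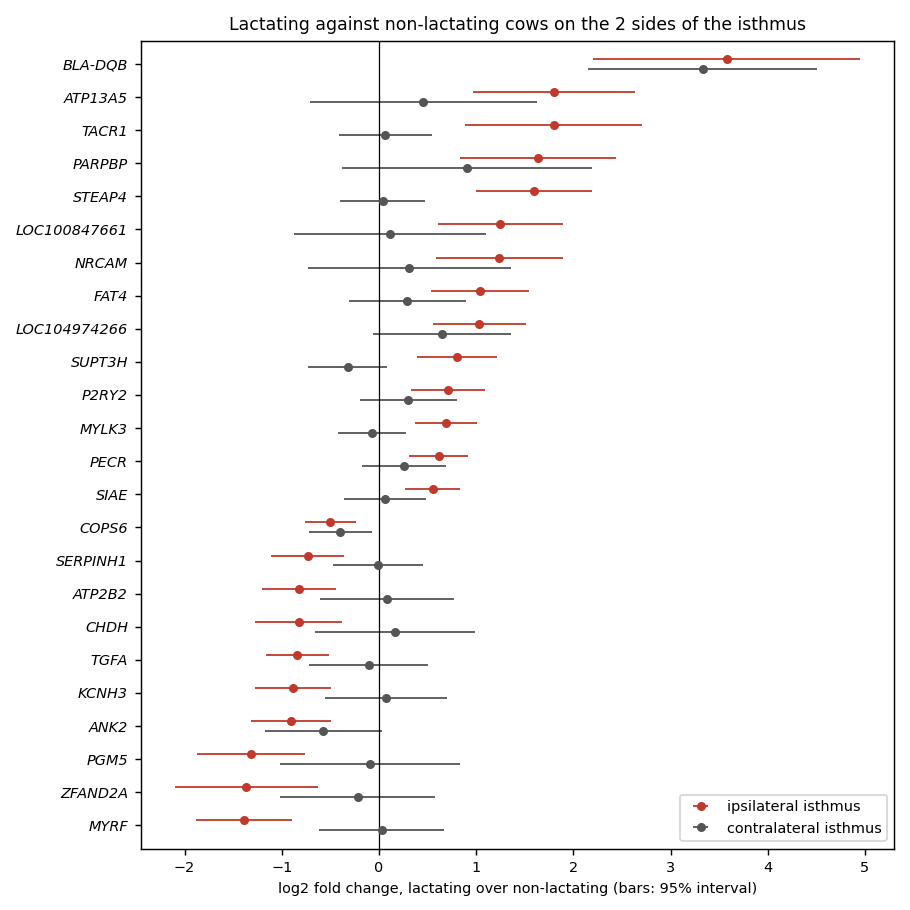
Log2 fold change (lactating over non-lactating) with its 95% interval for 24 genes in the ipsilateral and the contralateral isthmus of the same 4 lactating and 5 non-lactating cows. BLA-DQB was at 3.58 and 3.33, whereas STEAP4 was at 1.59 on the ipsilateral and 0.04 on the contralateral side. No difference between sides passed the interaction test.

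In the ampulla, the wider part of the oviduct nearer the ovary, edgeR's quasi-likelihood test called 0 of 14066 genes on the ipsilateral and 0 of 14067 on the contralateral side, and DESeq2 0 and 2 (0.00924%). The share with an unadjusted p under 0.05 was 3.57% (1.64% higher and 1.93% lower) on the ipsilateral and 5.06% (2.57% higher and 2.5% lower) on the contralateral side. The log2 fold change of BLA-DQB was 3.27 (SE 0.65) in the ipsilateral and 3.42 (SE 0.79) in the contralateral ampulla. As in the isthmus, lactating cow D was the lowest of its group, at 20.8 and 21.7 CPM, and lactating cow A was at 250 and 251. Most libraries came from the same cows, so these values are not independent of those of the isthmus. The log2 fold change of STEAP4 was 1.10 (SE 0.26) and 0.90 (SE 0.22), that of TACR1 1.08 (SE 0.37) and 1.21 (SE 0.41), and that of ANK2 -1.23 (SE 0.37) and -0.76 (SE 0.21). MYRF was near 0 in both, at -0.17 (SE 0.14) and -0.15 (SE 0.18), and so was KCNH3, at -0.07 in each. Levels also differed between regions. On the contralateral side MYRF was at 40.7 to 68.2 CPM in the ampulla and 8.19 to 27.2 in the isthmus. KCNH3 was at 58.4 to 108 and 31.6 to 84.8 CPM. TACR1 was lower in the ampulla, at 7.36 to 67.7 CPM against 49.3 to 99.1, as was ANK2, at 282 to 842 against 531 to 1541. The part of these regional levels in the lactation differences was not tested. The log2 fold change of FAT4 was -0.38 and -1.33, opposite in sign to the ipsilateral isthmus, but its level in the ampulla was low. It was at 0.376 to 3.66 CPM on the ipsilateral and 0.330 to 4.61 on the contralateral side, against 14.4 to 45.0 in the ipsilateral isthmus. In the ipsilateral ampulla 3 libraries carried an animal number or identity that did not match their group or animal. Without them the log2 fold change was -0.75 for ANK2, -0.73 for FAT4, 3.40 for BLA-DQB and 1.18 for STEAP4. Among these 3 libraries, the one labelled non-lactating cow B correlated at 0.787 with the other libraries of a heifer and at 0.445 with its own. The ipsilateral ampulla library of that heifer correlated at 0.868 with those of non-lactating cow B and at 0.417 with its own. An exchange of the pair was not tested. ANK2 was at 2244 CPM in the library labelled non-lactating cow B, against 604 to 856 in the rest of its group. The library of the lactating group numbered as non-lactating cow C correlated at 0.874 with those of lactating cow B. The library of the non-lactating group numbered as lactating cow B correlated at 0.848 with those of non-lactating cow C. These misnumbered libraries thus matched a cow of the group in their name. The values are set side by side without a test between tissues, most libraries coming from the same cows.

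**Figure D5:**
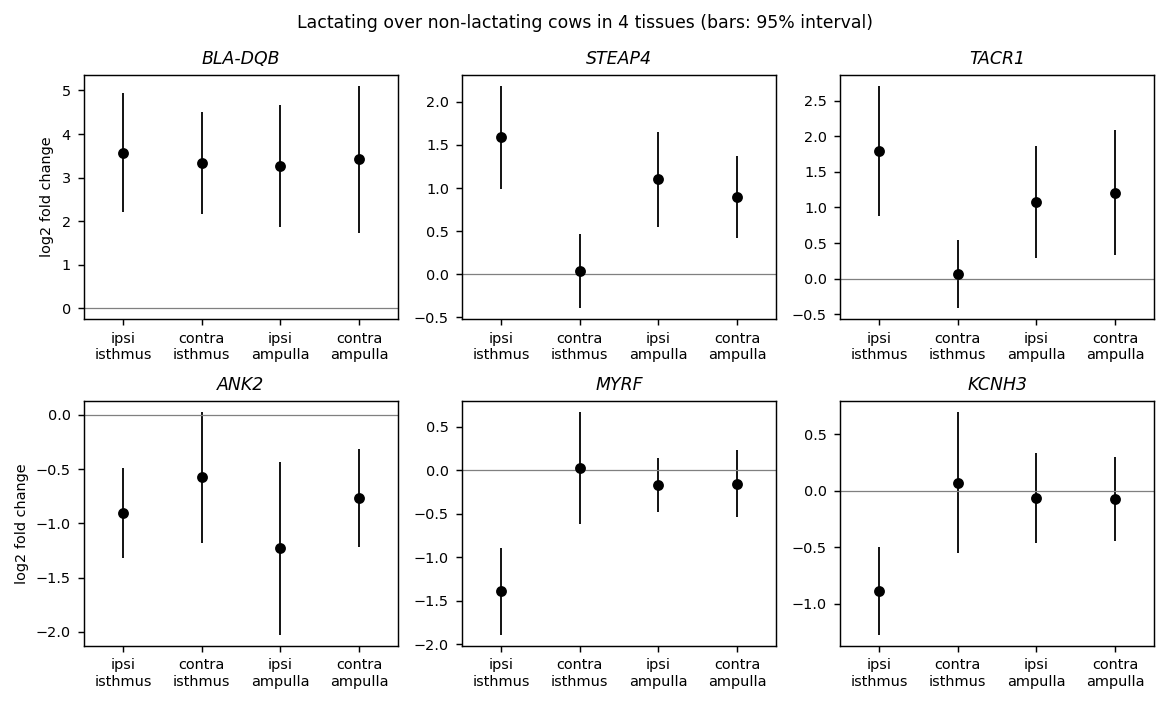
Log2 fold change (lactating over non-lactating) of 6 genes in the ipsilateral and contralateral isthmus and ampulla, with points for the estimate and bars for its 95% interval. BLA-DQB lay at 3.27 to 3.58 in the 4 tissues, whereas MYRF was at -1.39 in the ipsilateral isthmus and at -0.17 to 0.03 in the others. Most libraries of the 4 tissues came from the same cows, so the values of a gene are not independent.

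The heifers, which had neither calved nor lactated, did not side with a single group of cows. Of the 24 named genes that edgeR tested, 14 were higher in lactating cows, and the heifer mean was nearer to lactating cows for 7 and to non-lactating cows for 7. Of the 10 lower genes it was nearer to lactating cows for 4 and to non-lactating cows for 6. The heifer mean lay between the means of the cow groups for 11 of the 14 and for all 10. BLA-DQB was at 6.87 ± 3.07 CPM (SD, n = 5) in heifers, near the 8.12 ± 3.08 of non-lactating cows, and TGFA at 59.4, near the 62.8 of non-lactating cows. KCNH3 was at 45.9 CPM, near the 43.9 of lactating cows, and ATP13A5 at 53.2, near the 57.3 of lactating cows. STEAP4 was at 49.2 ± 17.8 CPM and MYRF at 22 CPM. The genes were chosen from the comparison of the cows, so these positions are a description without a test.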

How the data were processed

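RNA of scraped oviduct epithelium was sequenced with a stranded kit, and per the study's methods the authors aligned trimmed single-end reads with TopHat2 (2.0.13) to Btau_4.6.1 and counted them with htseq-count (0.6.1) by strand in intersection-strict mode. The deposited table holds whole-number counts for 31903 genes, not normalized. Its 5 summary lines were left out. Columns were grouped by group, region and side in their names.

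edgeR (4.0.16) and DESeq2 (1.42.0) were run in R (4.3.3). Genes were kept by filterByExpr with a minimum count of 10. Lactating and non-lactating cows of a tissue were fitted on their own with TMM and edgeR's quasi-likelihood F test, and genes were called where the p adjusted by Benjamini-Hochberg was under 0.05. The study's methods used DESeq2, which is given as an alternative. Printed CPM use TMM factors over all 56 libraries, whereas fold changes use the factors of each fit. Standard errors are the log2 fold change over the root of F, and intervals are 95%. The tests were checked on simulated counts.

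Gene lists (33, with 439 of 465 genes in the table) are described by counts and medians. The groups, lists and tests were chosen with earlier results of these data known. Named genes are those called by either tool, the 10 higher and 10 lower genes of smallest unadjusted p with a symbol and no overlap of the groups, per list up to 4 genes of smallest p and the most abundant, and cell type markers. Other genes are marked where named, and some listed genes are not reported here. Values were also computed with RLE factors, no filter, other filters, robust dispersions, a likelihood ratio test, a beta prior, thinned counts, all libraries of the tissue in 1 fit and each cow left out. List values under other settings and the ampulla without 3 libraries were added after seeing the data. Same-numbered isthmus libraries of both sides come from the same animal, and over 9 animals their deviations from the group means correlated at 0.094 to 0.563 (median 0.353, 7 over 0.1). Counts per library set the precision of low genes, and no sequence was used.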

Additional observations from a re-analysis of the deposited data

Results flagged for a closer look

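A sample was looked at again where its gap to the nearest other sample of its group was large relative to the range of the group. Over 160 groups of 4 or 5 cows (62 genes and 18 list sums) this held for 21 values, against 8 by chance at 1 in 20 groups. The genes share libraries, so the values are not independent. Lactating cow A held 10 of the 21.

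In lactating cow A the high values were BOLA-DQA5 at 101 CPM (others 0 to 6.33), CD74 at 2474 (172 to 487), C1R at 120 (1.46 to 6.66), C1QC at 49.9 (5.20 to 12.7) and PIGR at 50.9 (1.46 to 2.5). The summed markers of T cells (132 CPM, others 21.8 to 38.8), of B and plasma cells (10.1, others 1.66 to 2.01) and of neutrophils (64.7, others 1.14 to 9.57) were high in the same cow. Its low values were LOC100847661 at 17 CPM (29.1 to 30.4) and COPS6 at 45.3 (53.2 to 54.7).

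In lactating cow C, MYLK3 was low at 62.6 CPM (90.8 to 94.2), NRCAM high at 69.9 (52.6 to 53.9) and the summed fibroblast markers high at 215 (149 to 160). In lactating cow B, SIAE was high at 55.3 CPM (41.2 to 43.4) and PI3 low at 26.4 (51.7 to 56.2).

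Among non-lactating cows, CD74 was high in cow D at 708 CPM (156 to 215), with MHC class II genes summing to 850 (225 to 327). In cow A, CD44 was at 16.0 CPM (4.47 to 6.94) and adipocyte markers summed to 16.6 (5.41 to 7.62). In cow E, NSDHL was low at 34.2 CPM (57.2 to 62.9) and PLA2R1 was at 1.33 (0.534 to 0.746), which rests on 5 counts.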

How the results depend on the processing

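In the ipsilateral isthmus the count of called genes depended on the test. It was 0 with edgeR's quasi-likelihood test, 16 with DESeq2's Wald test, 17 with its beta prior (NRCAM and SAA3 among them) and 11 with edgeR's likelihood ratio test, and 14 genes had an unadjusted p under 0.001. Leaving out 1 cow gave 0 to 2 calls, ATP13A5 and RNASE1 without lactating cow A, MYRF without non-lactating cow A and TACR1 without non-lactating cow E. RLE factors, no filter, a median count filter, robust dispersions, thinned counts and all 14 libraries in a single fit gave 0 calls. In the contralateral isthmus DESeq2 called 2 genes and leaving out a cow gave 0 to 1. In the ipsilateral ampulla leaving out a cow gave 0 to 1, and in the contralateral ampulla 0 to 1, with 2 by DESeq2 and 16 without the filter. With each cow left out, log2 fold changes crossed 0 for PIGR (-0.64 to 2.68), CD74 (-0.10 to 2.09), PGR (-0.24 to 0.16) and TACR3 (-0.35 to 0.40), the first pair without lactating cow A. With the replicate block of the animal number, the interaction of side and lactation gave 0 calls, as it did without. No paired analysis was possible because lactating and non-lactating cows share no animal. Of 1075 alternative values of 60 genes, 1023 kept their direction and their side of the threshold, 44 newly passed it and 8 changed sign. Of 360 alternative medians of 30 lists, 43, in 16 lists, changed sign, and 7 moved by more than the spread between cows. The causes were not tested. With 4 and 5 cows and a median SE of 0.21, edgeR's quasi-likelihood test called no gene, not even BLA-DQB with a log2 fold change of 3.58. Large as well as small changes of single genes can therefore have gone uncalled.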

Other observations

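Cell division, clock and stress genes are left out of the comparison above. In the ipsilateral isthmus none of the 15 tested proliferation genes, 18 clock genes, 24 antioxidant genes and 9 glucocorticoid responsive genes had an unadjusted p under 0.05, and their medians were 0.12, -0.09, 0.00 and -0.01. The 95% interval of the log2 fold change lay within -1 and 1 for 15 of the clock genes, 19 of the antioxidant genes, 7 of the glucocorticoid responsive genes and 6 of the proliferation genes, so for most proliferation genes a 2-fold change was not outside it.

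Of 12 immediate early genes, EGR1, a zinc finger transcription factor, was higher and FOSL2, a subunit of AP-1, lower at an unadjusted p under 0.05. Of all genes, 3.35% were higher and 2.91% lower at that level. EGR1 was at 2.77, 2.5, 3.01 and 3.90 CPM in lactating cows and at 1.96, 1.12, 1.30, 0.363 and 1.60 in non-lactating cows, without overlap. FOSL2 was at 41.2, 46.8, 38.9 and 46.9 CPM and at 82.0, 58.2, 49.7, 43.0 and 87.0, and non-lactating cow D lay within the lactating range.

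Counting the genes that were more than 2-fold above or below all 8 other cows, lactating cow A had 147 above and 55 below, lactating cow C 64 above and 142 below, and non-lactating cow D 21 above and 111 below. No other cow had more than 16 above or 64 below.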
